A study of Saccharomyces cerevisiae with 15 samples.

Results

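The 38 genes described here encode subunits of the mitochondrial respiratory chain and of the ATP synthase of the budding yeast Saccharomyces cerevisiae. They were taken as the spots whose platform gene symbol names an NADH dehydrogenase (3 genes), a subunit of complex II (4), of complex III (9), a cytochrome c isoform (2), a subunit of complex IV (9) or of the ATP synthase (11). All 38 were on the array, each on 2 spots, among 5539 named genes. Wild-type cells treated with 1.0 mM As(III), trivalent inorganic arsenic or arsenite, were compared with untreated wild-type cells by hybridising both RNAs to the same 2-colour array. The arrays numbered 3 at 15 min of treatment, 3 at 30 min, 6 at 1 h and 3 at 18 h. Every array carried an untreated sample beside the treated one, and no other mutation or agent was labelled. Whether arrays shared untreated RNA was not stated in the labels. Cy5 marked the treated RNA on 12 arrays; Cy3 marked it on 3, which were 1 h replicates 1, 3 and 6. No strain background, medium, carbon source or harvest time of the untreated cells was stated in the labels. Since the labels do not say if replicates were separate cultures, a p-value describes only how far these samples scatter, and that scatter may be technical.

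The respiratory chain passes electrons from NADH and succinate through ubiquinone and cytochrome c to oxygen, and the proton gradient that it builds drives the ATP synthase. Budding yeast lacks the proton-pumping complex I of animals and oxidises NADH with single-protein dehydrogenases that face the matrix (Ndi1) or the space between the membranes (Nde1 and Nde2). While glucose is plentiful yeast ferments, and many nuclear genes of respiration are held low. They are raised when the Hap2/3/4/5 activator becomes active, in which Hap4 is the regulated subunit. The subunits encoded by mitochondrial DNA, such as Cox1, Cox2, Cox3 and cytochrome b, were not analysed here.

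Values are log2 ratios of treated over untreated RNA, after each array was centred on the median of its named genes, and are given as the mean ± SE of the model. A change is thus relative to the median gene. The direction is the likely one, judged by the labelled dyes and the wording of the titles. As deposited, the gene medians averaged 0.24, -0.34, -0.55 and 0.46 at 15 min, 30 min, 1 h and 18 h. On single arrays they ran from -1.17 to 2.23, -0.51 to -0.10, -1.35 to 0.22 and -0.19 to 1.02 at these times. Centring removed these shifts. A gene was called higher or lower when the adjusted p of limma's moderated test, with Benjamini-Hochberg adjustment over all 5539 genes, was under 0.05. Across all genes, arrays of a time correlated at r = 0.72 to 0.89 at 1 h, 0.41 to 0.93 at 30 min, 0.45 to 0.73 at 18 h and -0.06 to 0.23 at 15 min. Over the 38 genes these ranges were 0.67 to 0.92, 0.28 to 0.95, 0.14 to 0.41 and 0.01 to 0.46. Of 8 known arsenite-responsive genes, 5, 7, 8 and 6 were called higher at the 4 times, beside 0.921%, 4.98%, 17.3% and 7.94% of all genes. They were listed with earlier results of these data known, so this is no independent check of the labelled treatment. On arrays from whole cultures, less RNA of a gene per cell and fewer cells that make it cannot be told apart.

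The genes of respiration went both ways in arsenite. At 1 h, 8 of the 38 were higher and 7 were lower, that is 21.1% and 18.4%, beside 17.3% higher and 22.8% lower among all genes tested. Both shares were near those of all genes. The rises were 2 of 4 complex II genes, 3 of 9 complex III genes, both cytochrome c genes and NDI1, the internal NADH dehydrogenase. The falls were 3 of the 11 ATP synthase genes, both external NADH dehydrogenase genes, QCR6 of complex III and COX13 of complex IV. No ATP synthase or complex IV gene was called higher at 1 h.

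At 15 min, 0 of 38 were called, beside 0.921% of all genes called higher and 0.0722% lower. Of the 38, 3 had an unadjusted p under 0.05 in the limma fit, beside 797 of all genes. Array weights called 1 of the 38, beside 247 higher and 145 lower of all genes. At 30 min 2 were called higher (5.26%) and 4 lower (10.5%), beside 4.98% and 12.7% of all genes. At 18 h 5 were higher (13.2%) and 0 lower, beside 7.94% and 8.36%. The limma count of 0 lower at 18 h goes with 12 genes of the 38 at an unadjusted p under 0.05 in either direction. Of 30 alternative fits, 20 called 0 lower at 18 h, 5 called 1, 4 called 2 and 1, with weighted arrays, called 4. The median over the 38 genes was 0.05, -0.04, 0.16 and 0.36 at the 4 times, beside 0.02, 0.00, 0.02 and 0.00 over all genes.

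**Figure D1:**
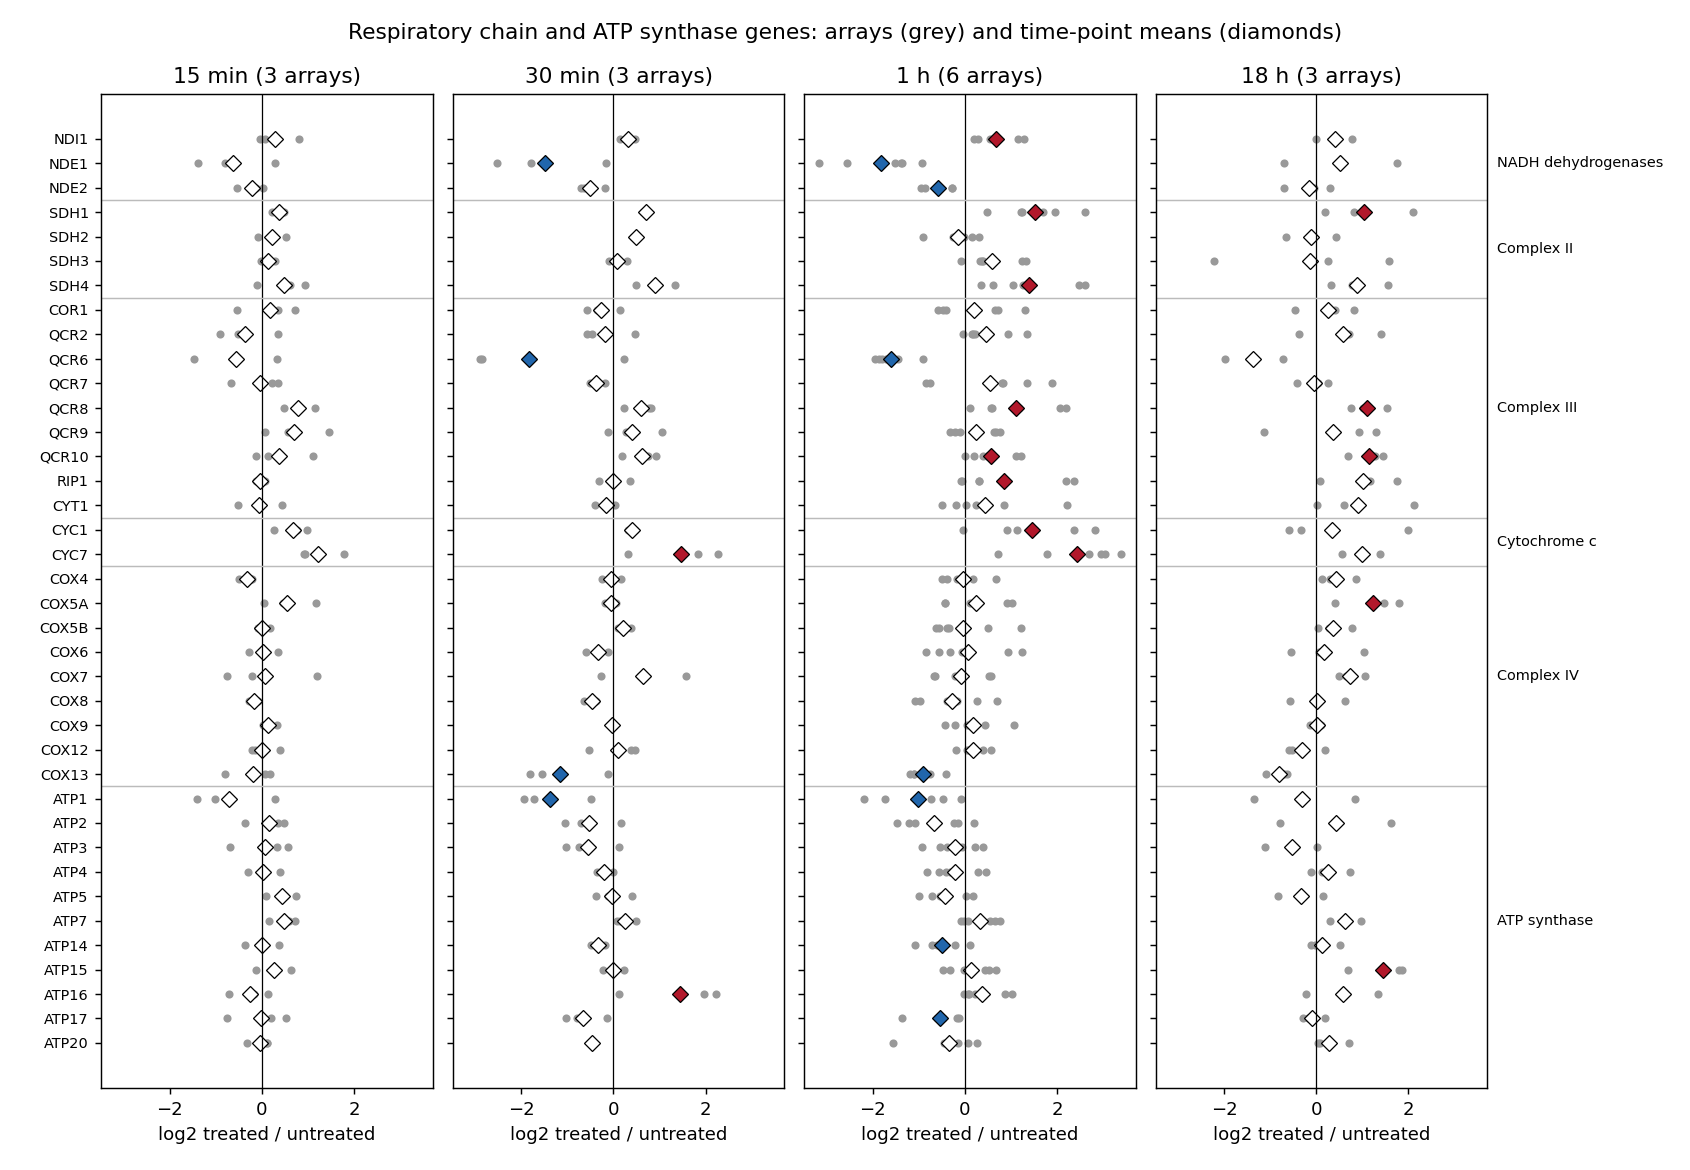
Log2 ratio of treated over untreated RNA (horizontal axis) for the 38 genes, grouped by complex, at 4 times in arsenite. Grey points are single arrays, diamonds are means over 3 or 6 arrays, filled red for called higher and blue for called lower (adjusted p under 0.05). At 1 h the red diamonds lie in complexes II and III, cytochrome c and NDI1, and the ATP synthase has 3 blue and 0 red ones.

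Among the NADH dehydrogenases the genes of the matrix-facing and the outward-facing enzymes went opposite ways at 1 h, relative to the median gene. NDE1, which oxidises cytosolic NADH at the outer face of the inner membrane, fell to -1.81 ± 0.35 (3.51-fold lower, n = 6, adjusted p = 0.000494). Its 6 arrays at 1 h ran from -3.16 through a median of -1.44 to -0.92, all below 0. NDE2, its paralog, was at -0.59 ± 0.16 (adjusted p = 0.00634) with arrays from -0.94 through -0.59 to -0.28, again all below 0. NDI1, the internal enzyme, rose to 0.68 ± 0.17 (1.61-fold, adjusted p = 0.00457), and its 6 arrays, from 0.21 through 0.59 to 1.28, were all above 0. The ranges of NDI1 and NDE1 did not overlap at 1 h. The rise of NDI1 depended on the processing. Without centring it was 0.13 (adjusted p = 0.851), and with treated RNA in Cy5 only 0.55 (0.143), neither called.

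On each 1 h array NDI1 stood above NDE1, by 2.50 ± 0.64 (SD, n = 6) on the log2 scale, and NDE2 above NDE1, by 1.22 ± 0.62 (SD, n = 6). An exact two-sided sign-flip permutation test within arrays gave p = 0.03125 for each, the smallest that 6 arrays allow, and 0.167 after Benjamini-Hochberg adjustment over the 16 such tests made. With 3 arrays the smallest possible p is 0.25. The lowest adjusted p that these 16 tests could give is 0.125, so no pair could pass 0.05 whatever its values. Probes for NDE1 and NDE2 may bind both transcripts, which leaves the exact copy uncertain.

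NDE1 was already low on 2 of 3 arrays at 30 min, with -0.17, -1.78 and -2.53 on replicates 1 to 3 and a mean of -1.49 ± 0.50 (adjusted p = 0.0469). At 15 min its arrays read 0.29, -1.39 and -0.80, and the mean of -0.64 was not called. At 18 h they read -0.69, 0.46 and 1.75, on both sides of 0, and the mean was 0.51 ± 0.50. The 18 h mean was higher than the 1 h mean by 2.32 ± 0.61 (adjusted p = 0.0358), beside 2.96% of all genes called higher and 2.06% lower in that comparison. The 18 h arrays of NDE1 lay above all 6 arrays of 1 h. This difference was no longer called without 1 h replicate 3 (2.17, adjusted p = 0.0800), 1 h replicate 4 (2.05, 0.0676), 18 h replicate 2 (2.34, 0.0857) or 18 h replicate 3 (1.70, 0.246). NDE2 read 0.03, -0.55 and -0.14 at 15 min, -0.18, -0.71 and -0.63 at 30 min, and -0.06, -0.69 and 0.31 at 18 h. None of these NDE2 means was called. NDI1 was between -0.05 and 0.81 on the 9 arrays of the other times, with no call.

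Complex II, succinate dehydrogenase, links the citric acid cycle to the chain, and 2 of its 4 genes rose at 1 h. SDH1, the flavoprotein that oxidises succinate, reached 1.53 ± 0.24 (2.89-fold, adjusted p = 7.9e-05), with 1 h arrays from 0.48 through a median of 1.47 to 2.60. SDH4, a membrane anchor subunit, reached 1.39 ± 0.27 (2.63-fold, adjusted p = 0.000573), with arrays from 0.35 through 1.15 to 2.62. All 6 arrays were above 0 for both genes. The iron-sulphur subunit SDH2 ran from -0.90 to 0.31 and the second anchor SDH3 from -0.08 to 1.32, and neither was called. At 18 h SDH1 was at 1.03 ± 0.34 (adjusted p = 0.0491) with arrays of 0.18, 2.10 and 0.81, and 1 array made most of that mean. It lost the call without any of 10 single arrays, and without 18 h replicate 2 it was 0.50 (adjusted p = 0.456); without 18 h replicate 3 it was 1.14 (0.0981), and without each of the other 8, which were 1 h replicates 1, 3, 4 and 5, 15 min replicates 1 and 3 and 30 min replicates 2 and 3, it stayed 1.03 with an adjusted p of 0.0548 to 0.0622. SDH3 read 0.25, 1.58 and -2.22 at 18 h, the widest spread of the 4 genes there. Yeast has close copies of SDH1, SDH3 and SDH4, so their probes may bind those too.

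Complex III, which passes electrons from ubiquinol to cytochrome c, held 3 rises and 1 fall at 1 h. QCR8, a small membrane subunit, was at 1.12 ± 0.24 (2.17-fold, adjusted p = 0.00116), with 1 h arrays from 0.12 through 0.88 to 2.21. RIP1, the Rieske iron-sulphur protein, was at 0.84 ± 0.31 (adjusted p = 0.0373), and QCR10, a small accessory subunit, at 0.57 ± 0.20 (adjusted p = 0.0306). The RIP1 rise lay on 2 arrays, with 0.30, -0.07, 0.32, -0.08, 2.38 and 2.20 on replicates 1 to 6. Without replicate 5 RIP1 was 0.53 (adjusted p = 0.178) and without replicate 6 it was 0.57 (0.173). QCR10 was no longer called without replicate 3 (0.58, adjusted p = 0.0553), replicate 5 (0.44, 0.128) or replicate 6 (0.46, 0.120).

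QCR6, an acidic subunit on the cytochrome c side, was the 1 complex III gene called lower. Its 1 h mean was -1.61 ± 0.33 (3.05-fold lower, adjusted p = 0.000823), with arrays from -1.94 through -1.75 to -0.90. All 6 were below 0, and below the lowest value of every other complex III gene at that time. It was 0.23, -2.86 and -2.89 at 30 min (mean -1.84 ± 0.47, adjusted p = 0.0130) and -1.98, -1.41 and -0.71 at 18 h (mean -1.36 ± 0.47, adjusted p = 0.0563, not called). QCR6 was also among the spots estimated as brightest, a measure set beside the falls further on.

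At 18 h QCR8 and QCR10 were higher. QCR10 read 1.45, 1.27 and 0.70 (mean 1.14 ± 0.28, 2.20-fold, adjusted p = 0.0112), and QCR8 read 0.76, 1.53 and 1.01 (mean 1.10 ± 0.34, 2.14-fold, adjusted p = 0.0352). All 3 arrays were above 0 for both. QCR10 was not called without 18 h replicate 1 (0.98, adjusted p = 0.0926) or replicate 2 (1.07, 0.0741). QCR8 was not called without replicate 1 (1.27, 0.0726), replicate 2 (0.88, 0.211) or replicate 3 (1.14, 0.0953). The core proteins COR1 and QCR2, cytochrome c1 (CYT1) and the small subunits QCR7 and QCR9 were called at no time. Their means ran from 0.20 to 0.55 at 1 h and from -0.04 to 0.91 at 18 h.

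Both cytochrome c genes rose at 1 h, and CYC7 had the largest rise of the 38 genes. CYC7 encodes iso-2-cytochrome c, the minor isoform, known for its expression at low oxygen and under stress, and CYC1 encodes the major, aerobic isoform. CYC7 reached 2.43 ± 0.30 (5.39-fold, adjusted p = 6.91e-06), with 1 h arrays from 0.72 through 2.82 to 3.38. CYC1 reached 1.46 ± 0.33 (2.74-fold, adjusted p = 0.00188), with arrays from -0.03 through 1.33 to 2.82. CYC7 was above 0 on all 6 arrays and CYC1 on 5, with replicate 2 the lowest for both.

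CYC7 stood above CYC1 on each of the 6 arrays, by 0.97 ± 0.46 (SD, n = 6). The exact sign-flip permutation test gave p = 0.03125, the smallest possible, and 0.167 after adjustment over the 16 tests, of which none could pass. CYC7 and CYC1 sequences are alike enough that a probe may read both.

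CYC7 was raised before 1 h as well. Its arrays read 0.92, 0.93 and 1.78 at 15 min, with a mean of 1.21 ± 0.43 that was not called (unadjusted p = 0.0122, adjusted p = 0.206), the lowest unadjusted p of the 38 genes at that time. They read 0.31, 1.83 and 2.28 at 30 min (1.47 ± 0.43, adjusted p = 0.0265) and 1.05, 1.37 and 0.57 at 18 h (1.00 ± 0.43, adjusted p = 0.126). All 15 arrays were thus above 0. CYC1 read 0.27, 0.75 and 0.97 at 15 min, 0.31, 0.48 and 0.40 at 30 min, and -0.60, 1.99 and -0.34 at 18 h, with no call. Its 18 h arrays had only replicate 2 above 0.

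Complex IV, cytochrome c oxidase, held few calls. COX13, a small subunit that is not part of the catalytic core, fell at 1 h to -0.91 ± 0.20 (1.88-fold lower, adjusted p = 0.00158), with arrays from -1.18 through -1.01 to -0.41, all below 0. It read -0.11, -1.82 and -1.54 at 30 min (-1.16 ± 0.29, adjusted p = 0.0116) and -0.70, -1.08 and -0.63 at 18 h (-0.80 ± 0.29, adjusted p = 0.0647). The other 8 genes of the complex had 1 h means between -0.28 and 0.23, and none was called.

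COX5A and COX5B encode alternative forms of subunit 5, COX5A the aerobic one and COX5B the one known for low oxygen. COX5A rose at 18 h, reading 0.41, 1.79 and 1.47 (1.22 ± 0.32, 2.33-fold, adjusted p = 0.0142), all above 0. Without 18 h replicate 2 it was 0.94 (adjusted p = 0.140) and without replicate 3 it was 1.10 (0.0837). COX5B read 0.77, 0.05 and 0.28 at 18 h and was not called. At 1 h COX5A ran from -0.44 through 0.17 to 1.03 and COX5B from -0.63 through -0.37 to 1.22, overlapping widely. COX5B minus COX5A was -0.27 ± 1.23 (SD, n = 6) at 1 h and was positive on 3 of 6 arrays (exact permutation p = 0.625, adjusted p = 0.667). At 15 min COX5A read 0.45, 0.03 and 1.16 and COX5B -0.09, -0.08 and 0.18. At 30 min COX5A read 0.06, -0.01 and -0.18 and COX5B 0.11, 0.14 and 0.37. So the low-oxygen form of the oxidase subunit was not called, whereas the low-oxygen cytochrome c was; that contrast between the pairs was not tested.

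**Figure D2:**
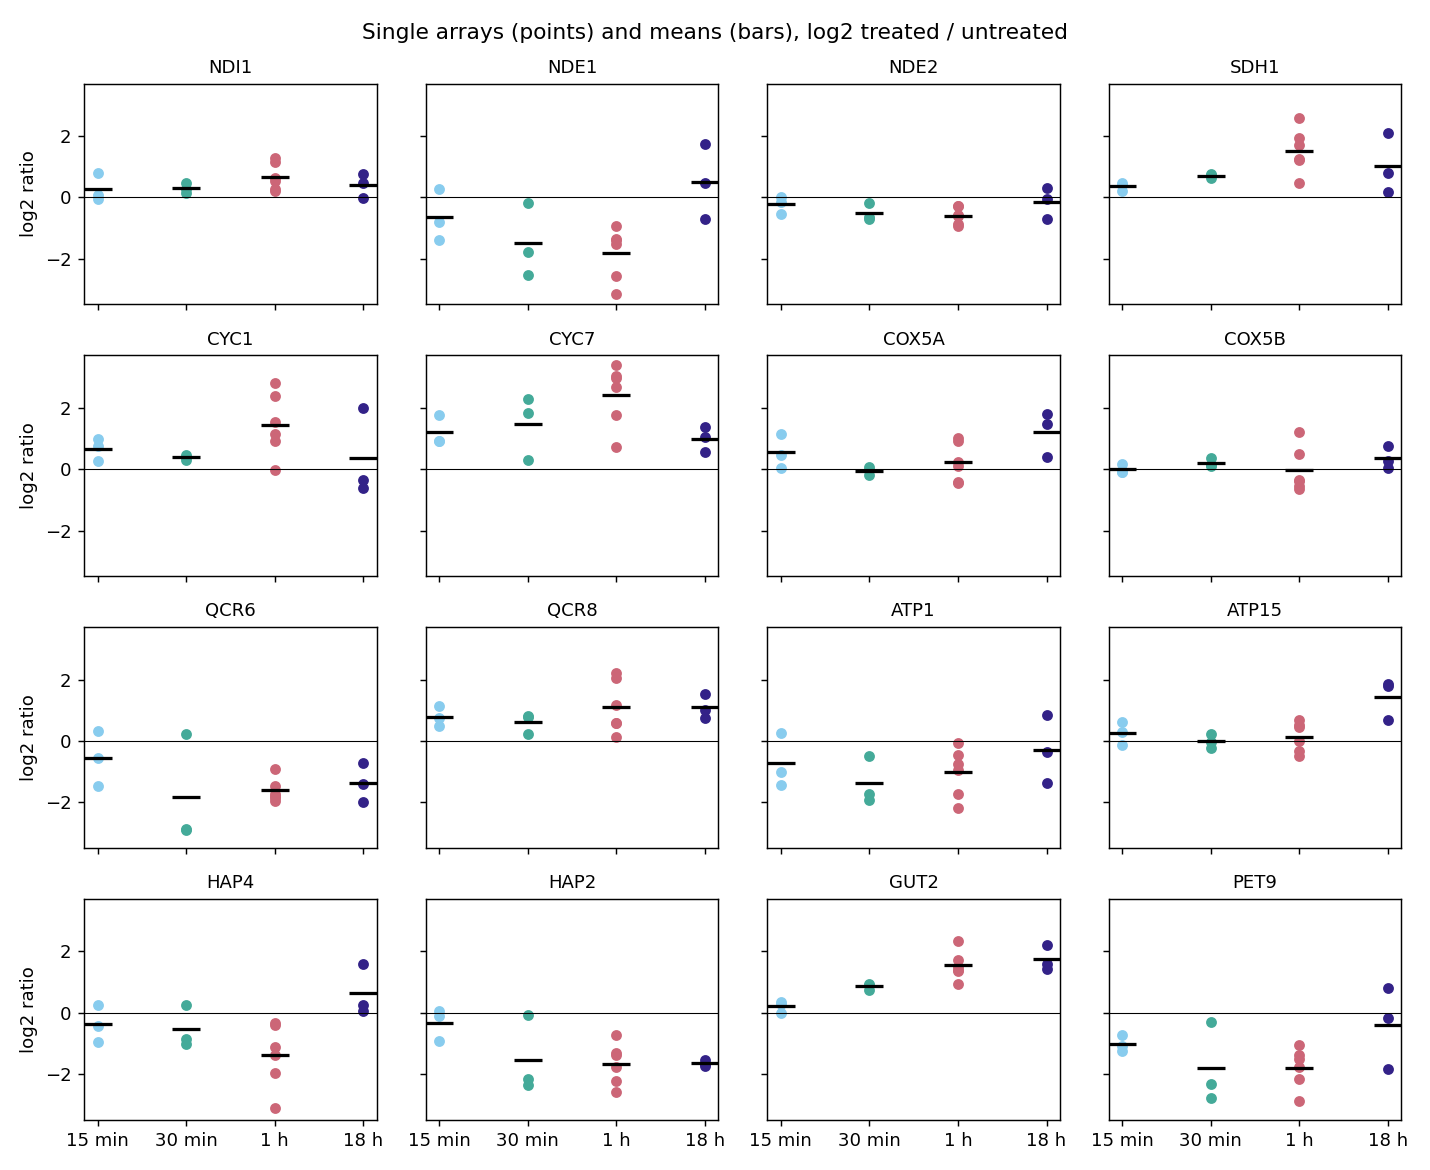
Log2 ratio of treated over untreated RNA for 12 of the 38 genes and for 4 genes around the chain (HAP4, HAP2, GUT2, PET9), by time in arsenite. Points are single arrays and bars are means. NDE1 is below 0 on all 6 arrays of 1 h and between -0.69 and 1.75 at 18 h, CYC7 is above 0 on all 15 arrays, and ATP15 is above 0 on all 3 arrays at 18 h.

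The ATP synthase had 3 genes lower at 1 h and none higher. ATP1, the alpha subunit of the catalytic head, was at -1.02 ± 0.31 (2.03-fold lower, adjusted p = 0.0139), with arrays from -2.19 through -0.85 to -0.08. ATP17 (subunit f of the membrane part) was at -0.55 ± 0.19 (adjusted p = 0.0317), and ATP14 (subunit h of the stalk) at -0.49 ± 0.16 (adjusted p = 0.0225). ATP1 and ATP17 were below 0 on all 6 arrays and ATP14 on 5. ATP1 was not called without 1 h replicate 3 (-0.88, adjusted p = 0.0560) or replicate 4 (-0.79, 0.0682). ATP14 was not called without replicate 2 (-0.45, 0.0666), replicate 3 (-0.47, 0.0576) or replicate 4 (-0.38, 0.0986). ATP17 was not called without replicate 2 (-0.53, 0.0666), replicate 3 (-0.55, 0.0617), replicate 4 (-0.38, 0.144) or replicate 5 (-0.56, 0.0595). The catalytic beta subunit ATP2 (-0.66) and the stalk subunit ATP5 (-0.42) had adjusted p of 0.0697 and 0.0738. At the first times ATP1 read 0.27, -1.42 and -1.03 (15 min) and -0.48, -1.93 and -1.71 (30 min), the latter with a mean of -1.38 ± 0.44 (adjusted p = 0.0398).

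ATP15, the epsilon subunit of the central stalk, was called at 18 h and at no earlier time. It read 1.85, 0.69 and 1.79 at 18 h (1.44 ± 0.27, 2.72-fold, adjusted p = 0.00217), against 1 h arrays from -0.48 through 0.22 to 0.67 (mean 0.14). The 18 h values all lay above the 1 h values, by 1.31 ± 0.33 in the mean (adjusted p = 0.0314). That difference lost its call without 1 h replicate 2 (1.18, adjusted p = 0.0528), replicate 3 (1.28, 0.0690) or replicate 4 (1.21, 0.0609), and without 18 h replicate 1 (1.10, 0.123) or replicate 3 (1.13, 0.166). The rise at 18 h itself stayed called without any single array. At 15 min ATP15 read 0.63, 0.29 and -0.14, and at 30 min -0.22, 0.22 and -0.04.

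ATP16, the delta subunit of the same central stalk, was called higher at 30 min and at no other time, with 0.12, 1.97 and 2.23 (1.44 ± 0.36, 2.71-fold, adjusted p = 0.0124). By estimated brightness its probe was among the dimmest on the array, at percentile 0.7 over genes. The estimate, described further on, can read too dim. The unadjusted p was 0.00428 for 30 min against 15 min and 0.0280 for 1 h against 30 min, and neither passed adjustment (0.414 and 0.414). ATP3, ATP4, ATP7 and ATP20 were called at no time, with 1 h means from -0.35 to 0.32.

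The 30 min calls rested on 2 arrays. Without 30 min replicate 2 or without replicate 3, 0 of the 38 genes were called at 30 min in the limma fit. Among all genes 46 were then higher and 27 lower, and 33 and 21, in that order. Without replicate 2 and without replicate 3, in that order, the means were -1.35 and -0.97 for NDE1, -1.33 and -1.31 for QCR6, 1.29 and 1.07 for CYC7, -0.83 and -0.96 for COX13, -1.10 and -1.21 for ATP1, and 1.17 and 1.04 for ATP16. Their adjusted p ran from 0.167 to 0.400. NDE1 also lost its 30 min call, at an unmoved mean of -1.49, without 1 h replicate 1, 2, 3, 5 or 6, 15 min replicate 3 or 18 h replicate 2 (adjusted p 0.0509 to 0.0593), and ATP1 without 18 h replicate 2 (-1.38, 0.0503). Replicate 1 of 30 min was nearer 0 than the other 2 arrays for each of the 6 called genes. Its duplicate spots correlated at r = 0.837, and those of 15 min replicate 1 and 18 h replicate 3 at 0.647 and 0.876, beside 0.932 to 0.991 on the other 12 arrays. The 15 min and 18 h values thus each include 1 such array.

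Between 15 min and 30 min, 0 of the 38 genes and 0% of all genes differed in either direction (2 of the 38 and 385 of all genes had an unadjusted limma p under 0.05). Leaving out 30 min replicate 1 gave 3 genes of the 38, beside 10 higher and 205 lower of all genes. Array weights gave 8, beside 618 and 885. Between 30 min and 1 h, 0 of the 38 differed, beside 0.379% of all genes higher and 0.0903% lower, and 2 of the 38 had an unadjusted limma p under 0.05. Array weights gave 2, beside 350 higher and 305 lower of all genes. Between 1 h and 18 h the 2 called genes were NDE1 and ATP15.

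The complexes differed in their medians at 1 h. Medians over genes at 1 h were 1.94 for cytochrome c, 1.00 for complex II, 0.47 for complex III, -0.03 for complex IV, -0.35 for the ATP synthase and -0.59 for the NADH dehydrogenases, beside 0.02 for all genes. Cytochrome c had the highest median of the 6 groups on 6 of 6 arrays at 1 h, on 3 of 3 at 15 min, on 2 of 3 at 30 min and on 1 of 3 at 18 h. The complex II median lay above that of the ATP synthase on 6 of 6 arrays at 1 h, 3 of 3 at 30 min, 2 of 3 at 18 h and 1 of 3 at 15 min. The complex III median lay above that of the ATP synthase on 6 of 6 at 1 h, on 3 of 3 at 30 min and 18 h and on 2 of 3 at 15 min. The complex IV median lay above it on 5 of 6 at 1 h, 2 of 3 at 30 min and 18 h and 1 of 3 at 15 min. On 1 h replicate 1 the ATP synthase (0.11) lay above complex IV (-0.17), and on 1 h replicate 4 it (-0.99) lay below the NADH dehydrogenases (-0.94), so the order of the 6 medians did not hold on every array. Without centring, the 1 h medians were 1.39, 0.45, -0.08, -0.58, -0.90 and -1.14 in the same order, so that of complex III turned below 0. With the trend of brightness, described further on, removed they were 1.97, 0.98, 0.63, 0.06, 0.04 and -0.40, so those of complex IV and the ATP synthase turned just above 0. Groups of 2 to 11 genes were not tested against each other.

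At 30 min the medians were 0.93 (cytochrome c), 0.60 (complex II), -0.04 (complex IV), -0.16 (complex III), -0.34 (ATP synthase) and -0.51 (NADH dehydrogenases). With the trend of brightness removed complex III and the ATP synthase turned to 0.15 each, and with a dye term complex III turned to 0.20. At 18 h they lay closer together, from 0.67 for cytochrome c and 0.59 for complex III through 0.41, 0.39 and 0.25 for the NADH dehydrogenases, complex II and the ATP synthase to 0.18 for complex IV. Without centring they ran from 0.63 to 1.13. All 6 were above 0 at 18 h, where 27 of the 38 gene means were above 0, beside 2776 of 5539 in all genes. The 18 h arrays differed in this. On replicates 1 to 3 the median over the 38 genes was 0.01, 0.64 and 0.30, with 20, 31 and 26 genes above 0. On replicate 1 the medians of the NADH dehydrogenases (-0.06) and the ATP synthase (-0.12) lay below 0.

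**Figure D3:**
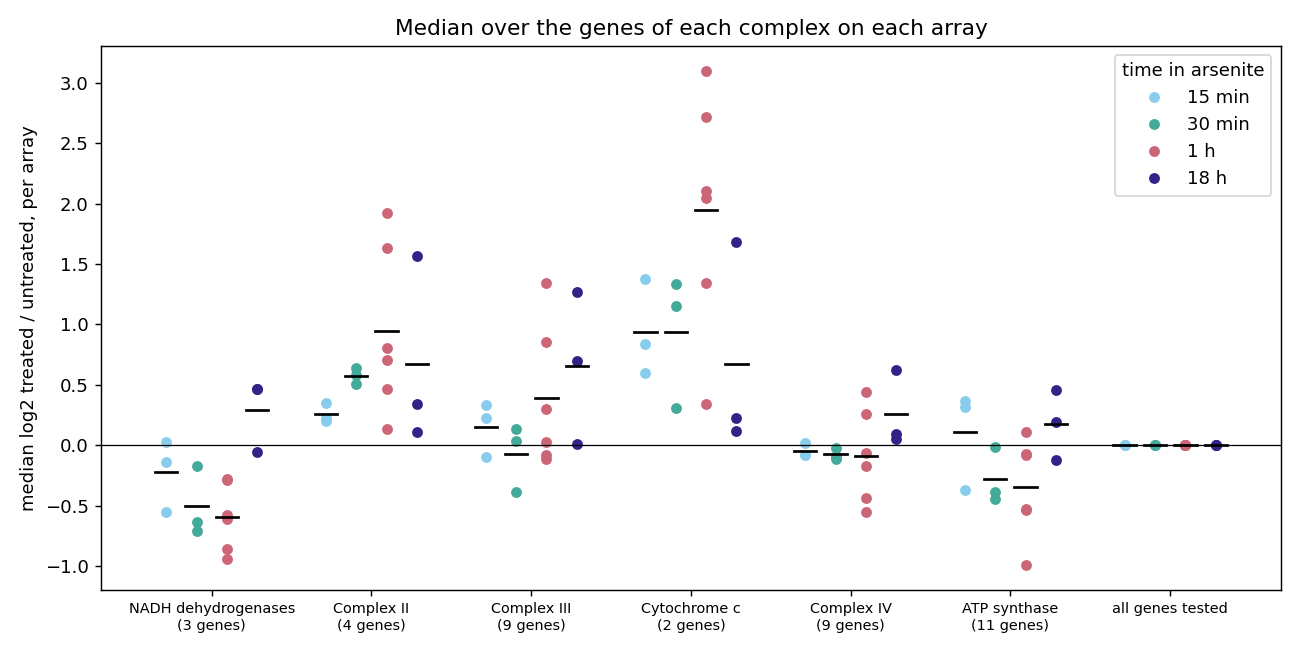
Median log2 ratio of treated over untreated RNA over the genes of each complex, per array (points) with the mean of the arrays (bars), at 4 times; all genes tested are at 0 by the centring. At 1 h the ATP synthase medians run from -0.99 to 0.11 and those of complex II from 0.14 to 1.92.

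The 1 h arrays were not alike over these genes. Of the 38 genes, 28 had one of their 2 highest 1 h values on replicate 6 and 25 on replicate 5, whereas 18 were lowest on replicate 4 and 14 on replicate 2. The median over the 38 genes was 0.63 and 0.49 on replicates 5 and 6 and between -0.50 and 0.21 on the other 4. Without replicates 5 and 6, 10 genes were called, 4 higher and 6 lower, beside 578 higher and 862 lower of all genes. Of the 15 calls, 9 were kept. NDI1, QCR10, RIP1, CYC1, ATP14 and ATP17 were the calls lost. By dye orientation, the 3 arrays with treated RNA in Cy3 gave 7 higher and 2 lower, beside 675 and 761 of all genes. The 3 with treated RNA in Cy5 gave 3 higher and 5 lower, beside 422 and 894 of all genes. NDE1, SDH1, SDH4, QCR6 and CYC7, that is 5 of the 15, were called in both. Replicates 5 and 6 had opposite orientations. Without centring, the split at 1 h was 1 higher and 6 lower, beside 148 higher and 1177 lower of all genes. Of the 15 calls 6 were kept, namely CYC7, NDE1, NDE2, QCR6, COX13 and ATP1. Without centring 0 of the 5 genes called at 18 h and 1 of the 6 at 30 min (QCR6) were kept. All genes then had 159 higher and 46 lower at 18 h, and 20 and 312 at 30 min.

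The largest falls lay among genes whose spots were estimated as bright. Brightness is an estimate, since the values are ratios and not channel signals. It was taken on the 10 arrays with ratios of whole numbers, from the whole numbers of each ratio in lowest terms. A factor shared by both channels is lost, so such a spot reads too dim. The estimate correlated between arrays at a median Spearman rho of only 0.37, so a gene's percentile is approximate. It put QCR6 at percentile 98.7 of all genes, COX13 at 95.5, ATP1 at 89.3 and NDE1 at 88.9, whereas CYC7, CYC1, SDH1 and SDH4 lay between 42.0 and 55.9. The median percentile was 80.3 for the ATP synthase, 76.7 for complex III, 72.6 for the NADH dehydrogenases, 59.9 for complex IV, 48.1 for cytochrome c and 41.9 for complex II. On most arrays bright genes read lower than dim ones: the brightest eighth of genes minus the dimmest eighth ran from -1.96 (30 min replicate 2) to 0.64 (18 h replicate 3), with -1.87 on 30 min replicate 3 and 0.03 on 30 min replicate 1. With that trend removed per array, 12 genes were higher and 4 lower at 1 h, beside 1196 and 1226 of all genes. Of the 15 calls 12 were kept, all but those of COX13, ATP1 and ATP14. At 30 min 2 were then higher and 0 lower, beside 508 and 627 of all genes, and CYC7 alone of the 6 calls was kept. What the trend adds to the falls was not tested beyond this.

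**Figure D4:**
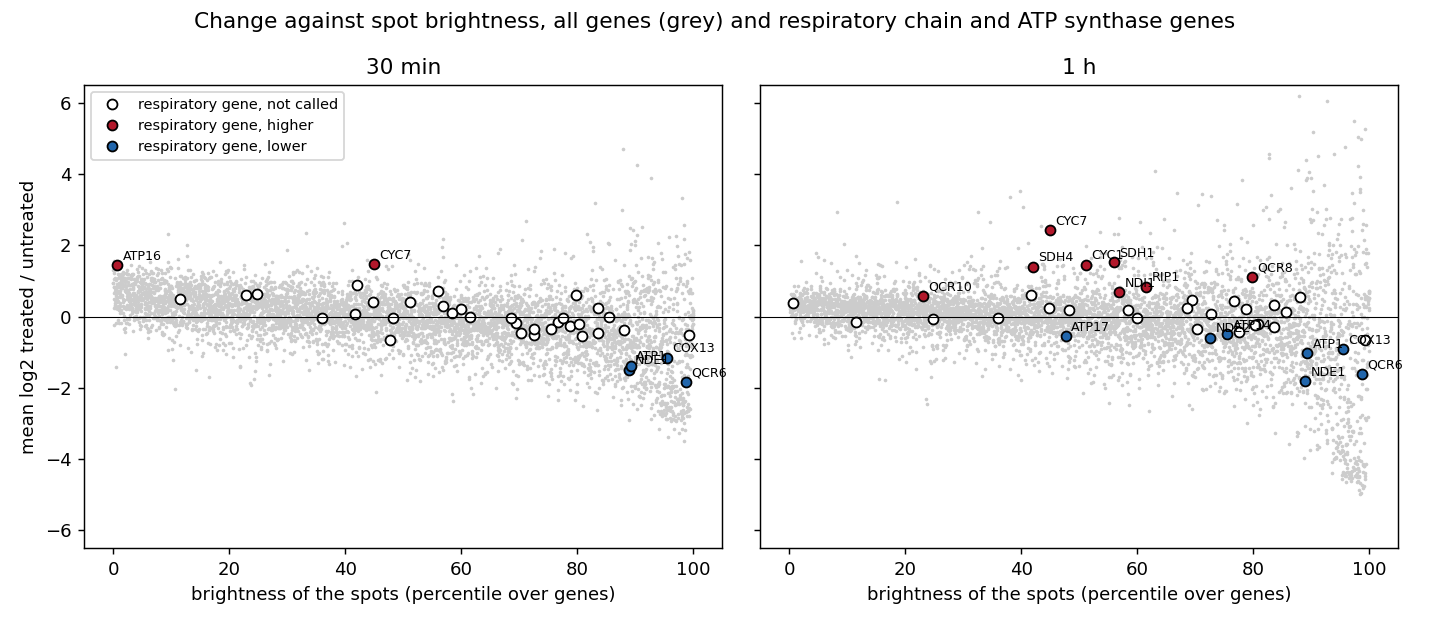
Mean log2 ratio of treated over untreated RNA at 30 min and 1 h (vertical axis) against the estimated brightness percentile of each gene's spots (horizontal axis). All genes are in grey and the 38 genes are circles, filled red where called higher and blue where called lower. At 1 h NDE1, ATP1, COX13 and QCR6 lie at percentiles 88.9 to 98.7, and CYC7, CYC1, SDH1 and SDH4 lie at 42.0 to 55.9.

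Genes around the chain were read from 8 further lists. Of 6 genes listed as other electron donors to the chain, 3 were higher (50%) and 0 lower both at 1 h and at 18 h. Of all genes 17.3% and 7.94% were higher at these times. The list holds CYB5, a cytochrome b5, which is not a certain donor to the chain and was called at neither time. GUT2, the mitochondrial glycerol 3-phosphate dehydrogenase, was at 1.54 ± 0.17 (2.91-fold, adjusted p = 1.52e-06) at 1 h and at 1.75 ± 0.24 at 18 h. CYB2, L-lactate cytochrome c oxidoreductase, was at 1.42 ± 0.28 at 1 h. PUT1, proline oxidase, was at 2.18 ± 0.34 (4.53-fold, adjusted p = 0.000576) at 18 h. MCR1, an NADH-cytochrome b5 reductase named after its values were seen, was at 1.15 ± 0.18 and 1.57 ± 0.25 at 1 h and 18 h. GUT2 was above 0 on 14 of 15 arrays, with -0.01 the exception at 15 min. Without centring none of the 3 was called at 1 h (GUT2 0.99, adjusted p = 0.0848; CYB2 0.87, 0.140; MCR1 0.60, 0.332), whereas at 18 h GUT2, MCR1 and PUT1 were.

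Of 5 mitochondrial ADP/ATP and phosphate carrier genes, PET9, the main ADP/ATP carrier, was lower at 1 h (-1.79 ± 0.33, 3.45-fold, adjusted p = 0.000292), and 4 were not called. The share lower was 20%, beside 22.8% of all genes. The PET9 probe may bind the related AAC1 and AAC3 too. PIC2, a mitochondrial carrier listed with the phosphate carriers, was higher at 18 h (1.32 ± 0.35), which is 20% of the list beside 7.94% of all genes. PIC2 was not called without 18 h replicate 1 (1.34, adjusted p = 0.0715) or replicate 2 (1.14, 0.119).

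Of 13 regulators of respiratory genes, 4 were lower (30.8%) and 0 higher at 1 h, beside 22.8% and 17.3% of all genes. HAP2, a DNA-binding subunit of the Hap2/3/4/5 activator, was at -1.67 ± 0.27 (3.19-fold lower, adjusted p = 9.71e-05), with arrays from -2.57 to -0.74. HXK2, a hexokinase that also acts in glucose repression, was at -1.52 ± 0.29. HAP4 (-1.38 ± 0.31) and REG1, a regulatory subunit of the phosphatase that acts against the Snf1 kinase (-0.62 ± 0.19), were named after their values were seen. The call of REG1 was lost without 1 h replicate 4 (-0.45, adjusted p = 0.0768). HAP4 read -1.38, -0.39, -3.11, -1.95, -0.34 and -1.13 at 1 h and 0.06, 1.60 and 0.24 at 18 h, and the ranges did not overlap. The difference between 18 h and 1 h for HAP4 was 2.02 ± 0.54 (adjusted p = 0.0413), and it lost its call without any of 9 single arrays: 1.53 (0.178) without 18 h replicate 2, 2.22 (0.102) without 18 h replicate 3, 2.31 (0.0567) without 18 h replicate 1, 2.02 (0.0581), 1.67 (0.0694), 1.91 (0.0771) and 2.07 (0.0670) without 1 h replicates 1, 3, 4 and 6, and 2.02 without 15 min replicate 3 (0.0553) or 30 min replicate 2 (0.0516). With treated RNA in Cy5 only, HAP4 was -0.90 at 1 h (adjusted p = 0.126) and its 18 h minus 1 h difference 1.53 (0.246), neither called. With a dye term that difference was not called either. At 18 h HAP2 was still at -1.65 ± 0.38 (adjusted p = 0.00763), and without 18 h replicate 1 at -1.61 (0.0509). ROX1, the repressor of hypoxic genes, was at 0.84 ± 0.21 (adjusted p = 0.0122), but not called without 18 h replicate 1 (0.88, 0.0533) or replicate 3 (0.70, 0.0920). The regulators at 18 h thus had 1 higher and 1 lower (7.69% each), beside 7.94% and 8.36% of all genes.

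Among 14 hypoxic genes, a list that holds CYC7, COX5B and ROX1 as well, 1 was higher (7.14%) and 3 lower (21.4%) at 1 h, beside 17.3% and 22.8% of all genes. CYC7 was the riser. OLE1, the fatty acid desaturase, was at -2.08 ± 0.36 (4.21-fold lower). ANB1, the hypoxic form of a translation factor, was at -1.22 ± 0.24, and HMG2, an isozyme of sterol synthesis named after its values were seen, at -0.77 ± 0.15. With the trend of brightness removed ANB1 was not called at 1 h (adjusted p = 0.0865). At 18 h ROX1 was higher and ANB1 lower (-1.11 ± 0.34), 7.14% of the list each, beside 7.94% and 8.36% of all genes. ANB1 was not called without 18 h replicate 1 (-0.73, adjusted p = 0.279) or replicate 2 (-1.21, 0.0975).

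Assembly factors, which insert cofactors and build the complexes, had 9 higher (25.7%) and 1 lower (2.86%) of 35 at 1 h, beside 17.3% and 22.8% of all genes, and 1 higher at 18 h (2.86%, beside 7.94%). CBP4, needed for complex III assembly, was at 0.69 ± 0.22, and CYT2, which attaches heme to cytochrome c1, at 0.65 ± 0.22. OXA1, the inner membrane insertase, was at -0.71 ± 0.20. OXA1 was not called with treated RNA in Cy5 only (-0.86, adjusted p = 0.0547), with the 1 h arrays in Cy3 only or without 1 h replicates 5 and 6. CBP4 lost its call without 1 h replicate 4, 5 or 6 (0.64, 0.57 and 0.63, adjusted p 0.0546 to 0.0732), and CYT2 without replicate 3, 4, 5 or 6 (0.61, 0.61, 0.62 and 0.48, adjusted p 0.0680 to 0.125). Without centring they were 0.13 and 0.10 (0.850 and 0.890). At 18 h ATP22, a translation factor for a mitochondrially encoded ATP synthase subunit, was at 0.77 ± 0.22, but not called without 18 h replicate 2 (0.56, 0.212) or replicate 3 (0.68, 0.117).

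Coenzyme Q synthesis had 3 higher (30.0%) and 0 lower of 10 at 1 h, beside 17.3% and 22.8% of all genes, namely COQ4 and COQ5 (0.63 each) and COQ9 (0.51 ± 0.17), the last named after its values were seen. COQ9 was not called without 1 h replicate 1 (0.37, adjusted p = 0.0998), replicate 3 (0.50, 0.0542) or replicate 6 (0.47, 0.0771). Without centring COQ4 and COQ5 were 0.075 and 0.083 (adjusted p = 0.918 and 0.911), and with treated RNA in Cy5 only they were 0.45 and 0.49 (0.268 and 0.157). At 18 h COQ4 was higher at 1.32 ± 0.25 and COQ10 lower at -0.99 ± 0.23, the latter not called without 18 h replicate 1 (-0.77, 0.0920). That is 10% each way, beside 7.94% higher and 8.36% lower of all genes. Of 8 heme synthesis genes, HEM15, ferrochelatase, was higher at 1 h (0.78 ± 0.26) and HEM14, the enzyme before it, lower (-0.52 ± 0.17). HEM15 lost its call without 1 h replicate 3, 5 or 6 (0.77, 0.66 and 0.59, adjusted p 0.0548 to 0.111), and HEM14 without replicate 4 or 5 (-0.39 and -0.51, 0.0998 and 0.0552), and HEM15 was 0.23 (0.740) without centring. None of the 8 was called at 18 h, beside 7.94% higher and 8.36% lower of all genes. Of the single genes named at 18 h from these lists, ATP22, COQ4, COQ10, INH1, PIC2, HAP2, ROX1 and ANB1 were not called without centring (adjusted p 0.0791 to 0.743).

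The ATP synthase inhibitor INH1 was higher at 18 h (0.87 ± 0.24; without 18 h replicate 2 0.79 with adjusted p 0.126, without replicate 3 0.81 with 0.0961). STF2, a stabiliser of the inhibitor, was at 0.48 ± 0.18 at 1 h with an adjusted p of 0.0463. It lost that call without any of 9 single arrays: without 1 h replicates 1, 2, 3, 4 and 6 it was 0.44, 0.45, 0.49, 0.53 and 0.40 (adjusted p 0.0607 to 0.153), and without 15 min replicate 3, 30 min replicate 3 or 18 h replicate 1 or 2 it stayed 0.48 (0.0514 to 0.0545).

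Other mitochondrial gene groups were set beside the 38 genes by counts. Of all genes 17.3% were higher and 22.8% lower at 1 h, and 7.94% and 8.36% at 18 h. Of 11 citric acid cycle genes 1 was higher (9.09%) and 4 lower (36.4%) at 1 h. At 18 h 1 was higher (9.09%) and 0 lower, and the medians at the 2 times were 0.03 and 0.10. Of 15 genes of the TOM and TIM import machinery 0 were higher and 7 lower (46.7%) at 1 h, and 4 were lower (26.7%) at 18 h (medians -0.40 and -0.55). Of 53 mitochondrial ribosomal protein genes 2 were higher (3.77%) and 7 lower (13.2%) at 1 h, and 5 were lower (9.43%) at 18 h (medians -0.09 and -0.25). Their share lower was below that of all genes at 1 h and near it at 18 h. The median over the 38 genes was 0.16 and 0.36 at these times. Of 133 cytosolic ribosomal protein genes 126 were lower (94.7%) at 1 h, with a median of -3.95. Differences between the lists were not tested.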

How the data were processed

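The authors deposited 1 log2 ratio per spot and array, in a table of 13056 spots and 15 arrays with 0 missing values. The base was borne out on 10 arrays, where the values are log2 ratios of whole numbers (relative tolerance 5e-14), and is assumed for 1 h replicates 1, 3 and 6, 15 min replicate 1 and 30 min replicate 1. No background subtraction, scanner or normalisation was stated in the labels. Deposited values of the 3 arrays with treated RNA in Cy3 held 30, 5 and 23 zeros with a minus sign, so their sign appears to have been turned already, and no array was turned here.

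Of the spots 11138 had 1 gene symbol in the platform annotation, 0 several and 1918 none, which were left out. The IDs of 11128 were found in the RefSeq R64 gene table. Spots were averaged per gene and arrays centred on the median of 5539 genes. limma 3.58.1 in R 4.3.3 fitted 1 mean per time over all arrays (11 residual and 5.62 prior degrees of freedom), without a dye term. The dye effect could be estimated only at 1 h, since the arrays of all other times had treated RNA in Cy5. It was called for 0 genes, which does not show that it was absent, since few arrays had each orientation. Over the 38 genes its size, as the shift of an orientation from the mean of both, had a median of 0.17 and reached 0.81. Calls with a dye term are given further on. Tests were two-sided with Benjamini-Hochberg adjustment in each comparison. The script was tested on simulated data. Isoform pairs were compared within arrays with SciPy 1.17.1 and NumPy 2.4.6.

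Genes named with array values were the 4 called with the largest rise and the 4 with the largest fall at each time, the isoform pairs and those called between neighbouring times. From each list around the chain the 2 largest called changes in each direction at 1 h and 18 h were named. The 38 genes and all lists were chosen with earlier results of these data known. Same-numbered arrays of different times correlated at r = -0.55 to 0.64 in their deviations, with 6 of 18 pairs over 0.1, so numbers were not taken as pairs. Alternatives covered centring, dye, spread, array weights, brightness, dim genes, array subsets and each array left out. There were 0 unused columns of per-sample values. The number of arrays limits the precision.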

Additional observations from a re-analysis of the deposited data

Results flagged for a closer look

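In 2 genes the effect of arsenite differed between times by a test of the difference itself. NDE1 was higher at 18 h than at 1 h by 2.32 on the log2 scale, with 1 h arrays from -3.16 to -0.92 and 18 h arrays from -0.69 to 1.75. ATP15 was higher at 18 h than at 1 h by 1.31, with 1 h arrays from -0.48 to 0.67 and 18 h arrays from 0.69 to 1.85. The 18 h arrays all had treated RNA in Cy5, and 3 of the 6 arrays at 1 h had it in Cy3. With the Cy5 arrays alone the differences were 2.47 for NDE1 (adjusted p = 0.149) and 1.54 for ATP15 (0.0923), as large as with all arrays but from 3 fewer, and not called. Dixon's gap ratio, which looks for 1 lone array, flagged 0 of 45 groups of 6 arrays at 1 h (critical value 0.625 of the range). It cannot flag arrays that are high together, such as 1 h replicates 5 and 6 for RIP1.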

How the results depend on the processing

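Over 30 alternatives, 4 of them chosen after seeing the data, NDE1 and CYC7 at 1 h were the only calls of the 38 genes kept in all. Genes called numbered 6 at 30 min, 15 at 1 h, 5 at 18 h and 2 for 18 h against 1 h. As deposited, without centring, they were 1, 7 and 0 at the 3 times, and the medians were 0.29, -0.38, -0.39 and 0.81 at 15 min, 30 min, 1 h and 18 h. With a dye term they were 1 at 30 min, 2 at 18 h and 0 for 18 h against 1 h. All genes then had 181 higher and 248 lower, 295 and 175, and 58 and 20. Medians with the dye term were 0.32 at 15 min and 0.11 at 30 min. Scaling to equal spread gave 2 at 30 min and 1 for 18 h against 1 h, beside 193 higher and 510 lower, and 140 and 26, of all genes. Array weights gave 18 h replicate 2 a weight of 4.10 and replicate 3 a weight of 0.39. They called 1, 16 and 25 at 15 min, 30 min and 18 h. Of all genes they called 247 higher and 145 lower, 1594 and 1634, and 1183 and 1240 at these times. For the successive differences the counts were 8, 2 and 5, beside 618 and 885, 350 and 305, and 539 and 308 of all genes. Removing the brightness trend gave 2 at 30 min (median 0.15), beside 508 higher and 627 lower of all genes. The 30 min arrays alone gave 0, beside 15 and 0. Treated RNA in Cy5 only gave 8 at 1 h and 0 for 18 h against 1 h. The 1 h arrays in Cy3 only gave 9 and 1 (lower). For 18 h against 1 h all genes then had 41 higher and 13 lower, and 82 and 88, in that order. A fit of replicates 1 to 3 with a replicate block gave 3 at 1 h and 0 for 18 h against 1 h. The same arrays without a replicate block gave 3 and 0. At 1 h all genes had 416 higher and 515 lower with the block, and 437 and 524 without it. For 18 h against 1 h they had 3 and 1 with it, and 22 and 14 without it. Excluding 15 min and 30 min replicate 1 gave 2 for 30 min against 15 min, beside 5 higher and 109 lower of all genes. Leaving out single arrays gave 0 to 7 at 30 min, 1 to 7 at 18 h, 0 to 3 for 30 min against 15 min and 0 to 2 for 18 h against 1 h. The 7 at 30 min, without its replicate 1, stood beside 580 higher and 1001 lower of all genes. The 1 at 18 h, without its replicate 2, stood beside 275 and 243. The 7 at 18 h stood beside 531 and 527 without 15 min replicate 2, and 464 and 551 without 30 min replicate 1. For 18 h against 1 h, 0 came without 1 h replicate 3 or 4 or 18 h replicate 3. All genes then had 94 and 73, 112 and 88, and 54 and 59. As deposited, STF2 (-0.066) and COQ9 (-0.038) turned at 1 h, and SDH3 at 18 h turned to 1.13 with array weights. No called gene of the 38 changed direction in any alternative. The causes of these changes were not tested. Probe sharing, 3 arrays at most times and unknown harvest of the untreated cells limit all values.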
